A study of Mus musculus with 3 samples.

Results

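Smooth muscle and outflow vessel genes were examined in hearts of mouse embryos labelled Lrrc10-/- and wild type. The genes are Acta2, Tagln, Cnn1, Myh11, Smtn, Lmod1, Actg2, Mylk, Eln and Pdgfrb, and every gene probe that carried one of these names was taken, which gave 17 of the 41174 gene probes on the array. Of these, 15 were among the 28330 probes bright enough to be tested, and every member gene kept at least 1 tested probe. The members were chosen after an earlier analysis of these same arrays had found a smooth muscle list lower in the Cy5 channel, so their ratios are given as a description with no test of the group.

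Each of the 3 two-colour arrays, which are the 3 replicates, compared 1 pool of 2 hearts labelled Lrrc10-/- (Cy5, red) with 1 pool of 2 hearts labelled wild type (Lrrc10+/+; Cy3, green). All hearts were taken at embryonic day 15.5 on a C57BL/6 background, and the null allele was inherited through the germline, so every cell type carried it. The study describes LRRC10 as a protein that only cardiomyocytes make, in embryo and adult. Per the study's methods, the animals came from heterozygous stock backcrossed to C57BL/6 and controls were littermates or matched for age. The labels of the wild-type channel carry an adult time of sacrifice beside the embryonic age, and the embryonic age was taken. The dyes were never exchanged, so genotype and dye cannot be told apart.

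Smooth muscle cells wrap the great arteries that leave the heart and the coronary vessels that grow within it. They contract with their own actins and myosin, which calcium switches on through the kinase Mylk, and the actin-binding proteins Tagln, Cnn1, Smtn and Lmod1 act on the filaments. Immature heart muscle of the embryo also uses several of these genes, Acta2 and Tagln among them, so in whole hearts they do not mark vessels alone. Eln encodes elastin, the stretchable protein of the arterial wall, and Pdgfrb encodes a growth factor receptor of pericytes and other mural cells. Many smooth muscle genes are switched on by serum response factor, which binds a short element called the CArG box.

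Lrrc10, the targeted gene, was read by 1 probe, and its log2 ratios of Cy5 over Cy3 were 3.99, 4.78 and 4.45 on replicates 1, 2 and 3. Its signal was thus higher in Cy5 each time, which goes against the labels. Every ratio here is therefore stated by channel, as Cy5 (labelled Lrrc10-/-) over Cy3 (labelled wild type).

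The probes are 60 bases long, and 5 of those described here for Acta2, Myh11, Tagln and Mylk are shown. The brightest tested probes of Acta2 and Tagln, A_52_P420504 and A_51_P450527, stand for these genes in the medians and are not shown. In the annotation of the files (mm9), the probes of Acta2 and Myh11 below each span more than their own length, at chr19:34322995-34326249 and chr16:14195223-14198147 on the minus strand, so each crosses an exon junction. The Tagln probe, at chr9:45738916-45738975 on the minus strand, is the one whose ratios part from those of the other Tagln probe. The Mylk probes, at chr16:34995162-34995221 and chr16:34996839-34996898 on the plus strand, are the pair that gave nearly equal ratios. No letter is set in capitals in these probes.
Acta2 A_51_P450957: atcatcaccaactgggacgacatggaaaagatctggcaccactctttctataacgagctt
Myh11 A_51_P362429: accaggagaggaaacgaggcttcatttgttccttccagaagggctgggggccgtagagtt
Tagln A_52_P517683: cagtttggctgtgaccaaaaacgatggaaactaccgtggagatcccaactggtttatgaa
Mylk A_52_P145912: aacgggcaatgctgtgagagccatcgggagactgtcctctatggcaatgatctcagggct
Mylk A_52_P575217: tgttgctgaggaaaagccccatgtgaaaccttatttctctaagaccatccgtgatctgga

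Promoters were matched by symbol in a RefSeq table of the GRCm38.p6 assembly, which held 5 of the 10 members: Acta2, Cnn1, Lmod1, Mylk and Smtn. Each window ran from 250 bases before the start site to 50 bases after it. An exact CArG box (CC, then 6 letters that are all A or T, then GG, which as a pattern reads the same on both strands) was found in 1.63% of all 32851 windows and in 0 of the 5. With 1 other letter allowed among the 6, a match was found in 9.98% of all windows and in 1 of the 5, that of Acta2. The Acta2 window held 2 such matches, starting 84 and 34 bases before the start site, and they are in capitals in the 250 upstream bases shown here (chr19:34255374-34255623, minus strand). A match is a description of letters, not a bound site.
Acta2 promoter: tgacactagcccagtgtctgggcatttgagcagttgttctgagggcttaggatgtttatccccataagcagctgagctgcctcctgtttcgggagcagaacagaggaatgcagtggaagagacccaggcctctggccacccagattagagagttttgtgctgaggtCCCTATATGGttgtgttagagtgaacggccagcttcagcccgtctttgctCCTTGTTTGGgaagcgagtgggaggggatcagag

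Most member probes lay slightly below 0. Of the 15 tested probes, 12 had a mean log2 ratio below 0, against 47.4% of all tested probes, and 8 lay below 0 on all 3 arrays, against 17.4% of all tested probes. Only 1, that of Lmod1, lay above 0 on all 3 arrays, against 19.1% of all tested probes. With 1 probe per gene, the brightest tested one, the median log2 ratio of the 10 genes was -0.09, -0.12 and -0.26 on the arrays in that order. The median of the gene means was -0.15, beside 0.01 over all tested probes. The 8 probes below 0 on all 3 arrays include an Acta2 probe at the scanner's limit (A_52_P420504) and 2 of Mylk. Of the 10 genes, 6 lay below 0 on all 3 arrays. So did 6 of 12 erythroid, 9 of 23 ventricular, 14 of 40 control and 11 of 38 matrix genes of the lists described below. Among those lists, only the mural genes (17.2%) had a share under the 17.4% of all tested probes. In bulk heart RNA, fewer cells of a type and less RNA per cell cannot be told apart.

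Across all tested probes, limma with Benjamini-Hochberg adjustment at 0.05 called 1.39% higher and 0.00353% lower in Cy5. None of the 15 member probes was called in either direction. At an unadjusted limma p under 0.05, 1 member probe (of Tagln) was lower and 0 were higher, where 4.26% of all tested probes were lower and 9.07% were higher. These shares stand beside the members as background only, because the members were chosen on this contrast.

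**Figure D1:**
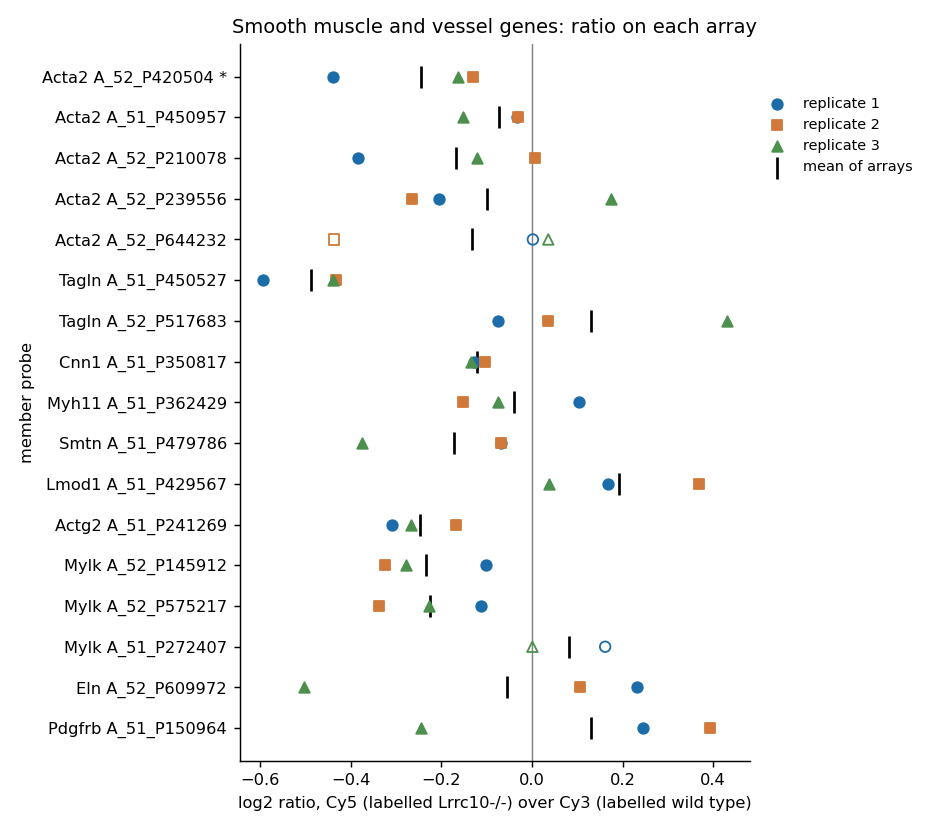
Log2 ratio of Cy5 (labelled Lrrc10-/-) over Cy3 (labelled wild type) of each of the 17 member probes on each array, with bars at the mean. Open symbols mark the 2 probes that were too dim to be tested, and the asterisk marks the Acta2 probe at the scanner's limit in both channels. Tagln A_51_P450527 lies farthest to the left, with a mean of -0.49, and Lmod1 is the tested gene that lies above 0 on all 3 arrays.

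Among the actins, Acta2 encodes smooth muscle alpha-actin. Its probe A_51_P450957, shown above, had Cy5 processed signals of 25120, 22770 and 35340 on replicates 1, 2 and 3, where the Cy3 signals were 31130, 26910 and 46600. After loess, which fits each array's ratios to intensity, its log2 ratios were -0.03, -0.03 and -0.15. All 3 were below 0, with a mean of -0.07 ± 0.07 (SD, n = 3), a size equal to the spread between arrays. Another Acta2 probe, A_52_P210078, gave -0.38, 0.01 and -0.12. Probe A_52_P239556 gave -0.20, -0.26 and 0.17. Both of these changed sign between arrays. The study describes the actin isoforms as highly alike in amino acid sequence. Whether the Acta2 and Actg2 probes also read other actin transcripts of the heart was not tested.

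The brightest Acta2 probe, A_52_P420504, was printed in 10 spots per array and gave -0.44, -0.13 and -0.16. It carries little information on direction, because 4 of its 10 spots on replicate 1, 9 or more on replicate 2 and all 10 on replicate 3 were at the scanner's limit in each channel. Over the tested probes at that limit in both channels, the median log2 ratio was -0.33, -0.12 and -0.16 on the 3 arrays, close to the values of this Acta2 probe on replicates 2 and 3. Its 10 spots ranged from -0.62 to -0.29 on replicate 1 and from -0.17 to -0.16 on replicate 3. With the brightest unsaturated probe in its place, the median of the 10 members was -0.10, a choice made after seeing the data.

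Actg2 encodes smooth muscle gamma-actin. Its processed Cy5 signals were 24700, 30250 and 32920, against 28890, 31080 and 43160 for Cy3. The log2 ratios were -0.31, -0.17 and -0.27, below 0 on every array, with a mean of -0.25 ± 0.07 (SD, n = 3), a 1.19-fold lower level in Cy5. The probe was not at the scanner's limit on any array. Its limma adjusted p was 0.41, so it was not called.

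Tagln encodes transgelin (SM22), an actin-binding protein that is among the earliest markers of smooth muscle and is also transcribed in the embryonic heart. Probe A_51_P450527 (chr9:45738097-45738156, mm9) had processed Cy5 signals of 12330, 15450 and 34660, against 15550, 18020 and 50020 for Cy3. The log2 ratios were -0.59, -0.43 and -0.44, with a mean of -0.49 ± 0.09 (SD, n = 3), a 1.40-fold lower level in Cy5. This was the lowest mean of any member probe, and 0.526% of all tested probes lay lower. For the other Tagln probe, described next, that share was 71.7%. These ranks are a description, because the members were chosen on this contrast. The limma adjusted p of A_51_P450527 was 0.132, which did not pass. Without replicates 1, 2 and 3 in turn it was 0.734, 0.431 and 0.042, and with the scanner software's own signals it was 0.735. The fit without replicate 3 called 248 of the 28330 tested probes lower, against 1 with all 3 arrays.

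The other Tagln probe, A_52_P517683, whose sequence is shown above, did not share this pattern. Its processed Cy5 signals were 1934, 1462 and 5142, against 2623, 1659 and 4151 for Cy3. Its log2 ratios were -0.07, 0.04 and 0.43, with a mean of 0.13 ± 0.27 (SD, n = 3). The means of the 2 Tagln probes differed by 0.62, whereas the 2 tested Mylk probes differed by 0.01. By the scanner software's own ratios, this probe gave -0.44, -0.18 and 0.31, a mean of -0.10, and the 2 probe means then differed by 0.26. Direction was thus not settled for Tagln as a gene.

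Mylk encodes myosin light chain kinase, which phosphorylates the regulatory light chain and so starts contraction. Probe A_52_P145912 had processed Cy5 signals of 464.8, 384.3 and 321.9, against 522.9, 505.4 and 487.1 for Cy3. Its log2 ratios were -0.10, -0.32 and -0.28, with a mean of -0.23 ± 0.12 (SD, n = 3). Probe A_52_P575217, also shown above, gave -0.11, -0.34 and -0.23, with a mean of -0.23 ± 0.11 (SD, n = 3). Both probes thus lay below 0 on all 3 arrays and in the same order. The last Mylk probe, A_51_P272407, was too dim for the test, had a spot discarded as non-uniform on replicate 2, and gave 0.16 and 0.00 on the other two arrays.

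Cnn1 encodes calponin, which binds actin and slows the myosin motor. Its processed Cy5 signals were 24020, 29890 and 62980, against 24420, 32990 and 77600 for Cy3. After loess, the log2 ratios of -0.13, -0.10 and -0.13 (mean -0.12 ± 0.02, SD, n = 3) were the tightest of any member. By the scanner software they were -0.02, -0.14 and -0.30 (SD 0.14), which was not the lowest SD among the member probes. On replicate 3 this probe was near the scanner's limit, with 18 of 63 pixels saturated in Cy3 and 21 of 63 in Cy5. Smtn encodes smoothelin, a protein of contractile smooth muscle cells. Its ratios were -0.07, -0.07 and -0.38 (mean -0.17 ± 0.18), so replicate 3 set most of its mean.

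Myh11 encodes the smooth muscle myosin heavy chain, the marker least shared with heart muscle. Its probe was dim, with processed Cy5 signals of 200.5, 361.6 and 89.72, against 203.3, 440.3 and 108.8 for Cy3, but well above background on every array in both channels. The ratios were 0.10, -0.15 and -0.07, with a mean of -0.04 ± 0.13 (SD, n = 3). They lay on both sides of 0, and the sign of the mean turned to 0.01 when replicate 2 was left out. The scanner software's ratios were -0.02, -0.28 and -0.28, below 0 on all 3 arrays, with a mean of -0.19. Lmod1 encodes leiomodin 1, which starts new actin filaments in smooth muscle. Its processed Cy5 signals were 138.1, 209.9 and 182.4, against 123.6, 160.6 and 176.1 for Cy3. Its ratios were 0.17, 0.37 and 0.04, above 0 on all 3 arrays, with a mean of 0.19 ± 0.17 (SD, n = 3).

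**Figure D2:**
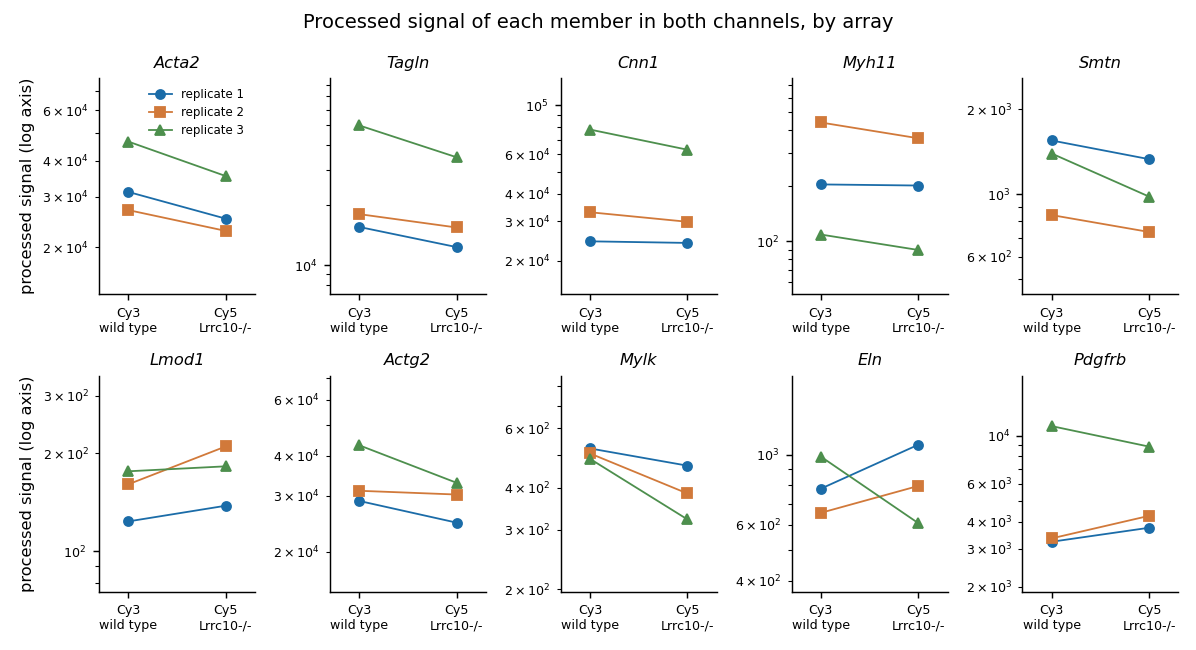
Processed signal (log axis) of each member in Cy3 (labelled wild type) and Cy5 (labelled Lrrc10-/-), with 1 line per array and, for Acta2, the brightest probe below the scanner's limit. Processed signals carry the scanner software's own dye normalization, so slopes can differ from the loess ratios. Acta2, Tagln, Cnn1, Myh11, Smtn, Actg2 and Mylk slope down on all 3 arrays, Lmod1 slopes up on all 3, and Eln and Pdgfrb slope up on replicates 1 and 2 and down on replicate 3.

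After loess, the wall gene Eln and the mural gene Pdgfrb varied more between arrays than any tested probe of a contractile member, whose SD was at most 0.27. By the scanner software's ratios this held for Eln (SD 0.62) but not for Pdgfrb (0.35). Acta2 A_52_P239556 (0.49) and Tagln A_52_P517683 (0.38) varied more than Pdgfrb there. Eln had processed Cy5 signals of 1075, 796.6 and 607.7, against 780.7, 655.0 and 986.0 for Cy3. Its log2 ratios were 0.23, 0.11 and -0.50, a mean of -0.06 ± 0.39 (SD, n = 3). Pdgfrb had processed Cy5 signals of 3751, 4258 and 8884, against 3232, 3350 and 11050 for Cy3. Its log2 ratios were 0.24, 0.39 and -0.24, a mean of 0.13 ± 0.33 (SD, n = 3). Both genes were above 0 on replicates 1 and 2 and below 0 on replicate 3, and their means were smaller than the spread between arrays.

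The ratios of the scanner software, normalized by its own linear and lowess steps, had a lower mean than the loess ratios at 10 of the 15 tested member probes. For Acta2 A_51_P450957 they were -0.31, -0.24 and -0.40, against -0.03, -0.03 and -0.15 after loess. For Tagln A_51_P450527 they were -0.33, -0.22 and -0.53, and for Mylk A_52_P145912 they were -0.17, -0.40 and -0.60. The ratio of this Acta2 probe, A_51_P450957, was thus larger in size by the software's processing and below 0 by both. The mean of Acta2 probe A_52_P239556 was -0.10 after loess and 0.03 by the software. By the software's ratios, 9 of the 15 tested member probes lay below 0 on all 3 arrays, against 19.3% of all tested probes. The median over the 10 genes was -0.21, against -0.04 over all tested probes.

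**Figure D3:**
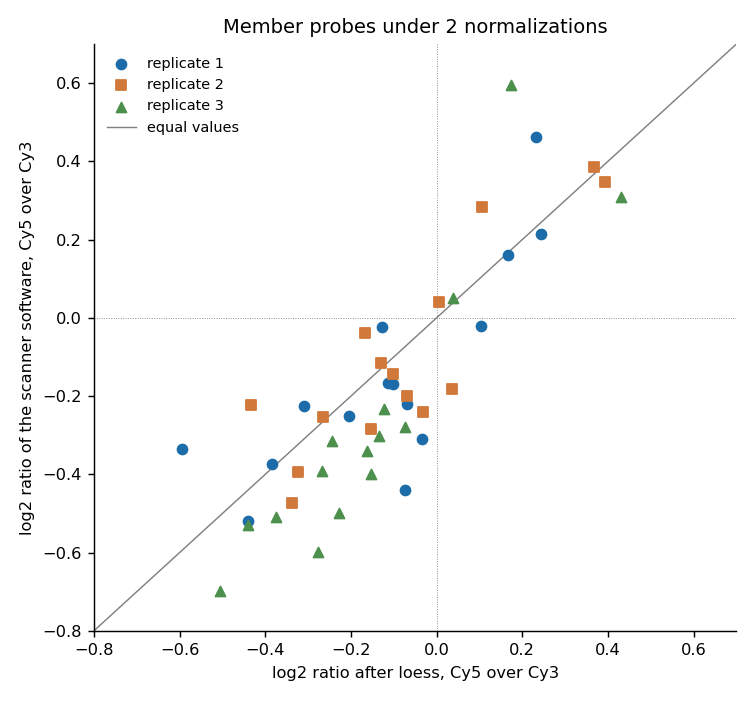
Log2 ratio of Cy5 over Cy3 of the 15 tested member probes on each array, after loess (horizontal axis) and as given by the scanner software (vertical axis), with the line of equal values. Most points of replicate 3 lie below the line, and the median of the 10 genes is -0.15 on the horizontal scale and -0.21 on the vertical one.

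Genes that accompany the members in smooth muscle and the vessel wall were followed through 4 lists with 141 tested genes. Of 34 other contractile genes, 22 had a mean below 0, with a median of -0.07 and 0 calls. Of these 34 genes, 5 were at the scanner's limit in both channels on at least 1 array, Myl9 and Tpm1 among them. The lowest were Hspb6 (-0.54), a small heat shock protein, and Myh10 (-0.48), a non-muscle myosin, and the highest were Ppp1r12b (0.85), a subunit of myosin phosphatase, and Itga1 (0.43), a collagen-binding integrin. None of these 4 passed, although Ppp1r12b and Itga1 were called higher when replicate 3 was left out. That fit called 8 of the 141 listed genes higher and 4 lower, beside 1556 and 248 of all 28330 tested probes.

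The 40 genes of control and signalling had a median of -0.01, which was 0.02 without replicate 3, and 0 calls. Their lowest means were those of Rbpj (-0.54), the DNA-binding partner of Notch, and Tgfbr2 (-0.52), a TGF-beta receptor. Their highest were those of Smad2 (0.51), a TGF-beta signal carrier, and Jag1 (0.46), a Notch ligand, and none of the 4 passed. Without replicate 3, Rbpj was called lower and Smad2 higher. The 38 genes of elastic fibre and wall matrix had a median of -0.06, which was 0.02 without replicate 3. Efemp2 (-0.58), which organises elastic fibres, and Col1a2 (-0.51), a collagen chain, were lowest, and Vcan (1.42) and Fbn1 (0.42), the main protein of microfibrils, were highest. The 29 genes of mural cells had a median of -0.01, which was 0.03 without replicate 3, with Angpt1 (-0.54), a ligand of the endothelial receptor Tek, and Anpep (-0.35), a pericyte enzyme, lowest and Higd1b (0.81) and Agtr1a (0.39), an angiotensin receptor, highest. Without replicate 3, Efemp2 was called lower and Fbn1 and Agtr1a higher.

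Over the 4 lists, 2 genes were called higher and 0 lower by limma, a share called higher of 1.42% beside 1.39% of all tested probes. At an unadjusted limma p under 0.05, 6 (4.26%) were higher and 19 (13.5%) lower, beside 9.07% and 4.26% of all tested probes. Higd1b, known as a pericyte gene, had log2 ratios of 0.67, 0.67 and 1.07 (mean 0.81 ± 0.23, SD, n = 3, limma adjusted p = 0.0377). Vcan, the matrix proteoglycan versican, had ratios of 0.68, 1.81 and 1.76 at its brightest probe (mean 1.42 ± 0.63, limma adjusted p = 0.0326). Another bright Vcan probe, A_52_P251703, gave -0.11, -0.12 and -0.35, so the probes of this gene disagreed. Neither gene was called with the software's signals, where the adjusted p was 0.735 for Higd1b and 0.371 for Vcan. Without replicate 1, and without replicate 2, the adjusted p of both was over the threshold too, at 0.25 and 0.217 for Higd1b and 0.0698 and 0.244 for Vcan.

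The 5 listed genes whose ratios were nearest to the members' median, by Euclidean distance over the 3 arrays, were Col5a1, Prrx1, Fhl1, Fbln7 and Actn1, at distances of 0.0708 to 0.127. Col5a1, a fibrillar collagen chain, gave -0.10, -0.16 and -0.31, beside -0.09, -0.12 and -0.26 for the members. Fhl1 was at the scanner's limit in both channels on at least 1 array. Among the members themselves, Cnn1 (0.13) and Smtn (0.131) lay nearest to the median, and Tagln (0.628), Lmod1 (0.621) and Pdgfrb (0.606) lay farthest from it.

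Markers of other cells that the hearts or their dissection could hold were set beside the members. Median log2 ratios were -0.03 for 23 genes of ventricular muscle (from -0.28 for Actn2 to 0.45 for Myoz2), -0.08 for 11 of atrial muscle (-0.21 for Nppa to 0.84 for Sln) and -0.01 for 15 of epicardium and fibroblasts (-0.33 for Bnc1 to 0.44 for Dpt). They were -0.20 for 12 erythroid genes (-0.46 for Alas2 to 0.15 for Ahsp) and 0.02 for 10 genes of skeletal muscle (-0.65 for Tnni2 to 0.15 for Chrna1). Of 12 genes of lung and airway only 4 were bright enough to be tested, with means from -0.19 for Id2 to 0.14 for Scgb1a1 and a median of -0.06. On replicates 1, 2 and 3 the ventricular median was -0.15, -0.09 and -0.16, beside -0.09, -0.12 and -0.26 for the members, and the atrial and epicardial medians of replicate 1, -0.17 and -0.16, were also below that of the members. Of the 23 ventricular genes, 9 were at the scanner's limit in both channels on at least 1 array. So were 3 of the 11 atrial, 2 of the 12 erythroid and 1 of the 10 skeletal muscle genes. Nppa was among these atrial genes, and its value is that of saturated probes and gives no rank. The part of these cells in the member ratios was not tested.

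The 20 endothelial genes (from -0.44 for Tie1 to 0.57 for Egfl7) had medians of 0.03, 0.15 and -0.30 on replicates 1, 2 and 3, and the mural list had 0.10, 0.14 and -0.17. These stand beside 0.24, 0.39 and -0.24 for Pdgfrb and 0.23, 0.11 and -0.50 for Eln, so both list medians and both genes were below 0 on replicate 3. On that array 13 of the 20 endothelial and 20 of the 29 mural genes were below 0, where the median over all tested probes was -0.0036. So were 29 of 38 matrix, 23 of 34 contractile, 24 of 40 control, 17 of 23 ventricular and 9 of 12 erythroid genes. In the atrial, epicardial, liver, lung and skeletal muscle lists, fewer genes were below 0 than above. The 10 liver genes tested (from -1.19 for Afp to 0.31 for Hnf4a) had medians of 0.54, -1.94 and 0.18, and Afp, an abundant fetal liver transcript, was at -5.15 on replicate 2. Without replicate 2, the median of the members was -0.16, beside -0.15 with it. The part of liver tissue in the member ratios was not tested.

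**Figure D4:**
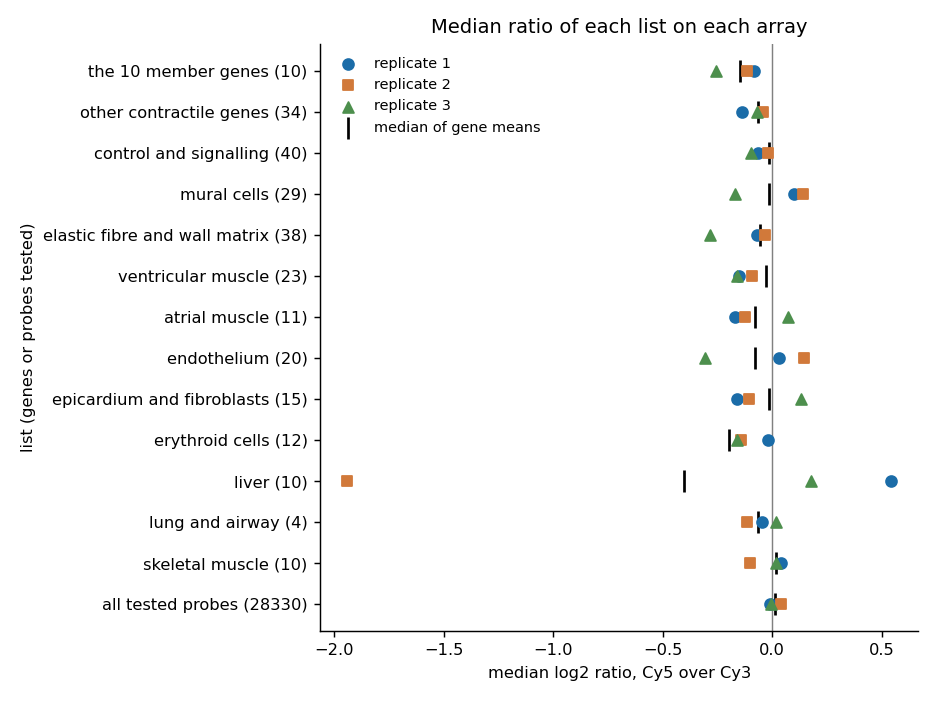
Median log2 ratio of Cy5 over Cy3 on each array for the 10 member genes, 4 lists of other vessel genes, 8 lists of other cells and all tested probes, with bars at the median of the gene means and the number tested in parentheses. The members lie below 0 on all 3 arrays, as do the contractile, control, matrix, ventricular and erythroid lists. The mural and endothelial lists turn from above to below 0 on replicate 3, and the atrial, epicardial and lung lists turn the other way. The liver list stands at -1.94 on replicate 2.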

How the data were processed

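Per the labels, 3 two-colour Agilent whole-mouse-genome arrays each held 1 Cy5 and 1 Cy3 pool of hearts. The deposited spot intensities were made by the authors with Feature Extraction 9.1.3.1 (replicate 1, local background) and 10.7.3.1 (replicates 2 and 3) per the file headers, while the submitters' processing notes name 9.5. The deposited log10 ratios hold the software's background-subtracted, dye-normalized Cy5 over Cy3 and are shown as log2. They and the series table were used as alternatives.

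Mean signals were corrected with normexp (offset 50) and normalized by loess within arrays in limma 3.58.1 (R 4.3.3). Control spots had weight 0, non-uniform spots were dropped, and spots of a probe were averaged. Probes well above background in 1 channel on all 3 arrays were tested against 0 (lmFit, eBayes, two-sided, Benjamini-Hochberg over all tested probes, threshold 0.05). A gene is represented by its brightest tested probe. Saturated means flagged or at 99% of the scanner's limit or above. Each array is 1 replicate, and their number limits the precision: an exact sign-flip test of 3 arrays cannot go below p = 0.25.

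The members and lists were chosen with earlier results of these data known. The lists were written from general knowledge. Genes named are all members, Lrrc10, called genes and the 2 lowest and 2 highest of each vessel list, the 5 nearest in pattern, and the lowest and highest of each other list. The fit was tested on simulated data. Of 27340 probes with a RefSeq accession, 26879 matched the GRCm38.p6 gene table. Alternatives covered background correction, centring, filters on dim probes, non-uniform spots, the methods' t-test, software version, probe choice and left-out replicates.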

Additional observations from a re-analysis of the deposited data

How the results depend on the processing

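The member median of -0.15 stayed below 0 under every alternative run, from -0.24 with median centring to -0.09 without replicate 3, and was -0.16 to -0.17 without replicate 2 or 1. Of the 10 members, 7 kept their sign under all 11 alternatives, not all of which could change it. The filters on dim probes and the keeping of non-uniform spots left the members' values as they were. The software's signals and the series table gave the same values as each other. Leaving out a replicate cannot turn the sign of a gene on the same side of 0 on all 3 arrays. Myh11 turned to 0.01 and Pdgfrb to -0.0003 without replicate 2, and Eln turned positive with the software's signals (0.02), in the series table, with a block for the software version (0.02) and without replicate 3 (0.17). Tagln was called in the fit without replicate 3 and in no other. Median centring in place of loess moved the median over gene probes by -0.02, -0.02 and -0.10 on replicates 1, 2 and 3, and single probes by other amounts (Cnn1 to -0.23, Lmod1 to 0.19).

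Over all tested probes, 395 calls higher became 0 with the software's signals, the series table and the methods' t-test, 1 with no background correction and with that block, 145 with no filter on dim probes, and 1 to 1556 without 1 replicate. The 1 call lower became 0 in these, 2 with median centring, and 0 to 248 without 1 replicate. The largest counts, 1556 higher and 248 lower of 28330 tested probes, came without replicate 3. The 2 vessel genes called higher became 1 with the mean of all probes of a gene, 0 with the software's signals, no background correction, no filter, the methods' t-test, the block and the series table, and 0 to 8 without 1 replicate, all 8 (Ppp1r12b, Itga1, Smad2, Rock1, Agtr1a, Higd1b, Fbn1 and Vcan) without replicate 3. The 0 called lower became 0 to 4 without 1 replicate, all 4 (Csrp1, Rbpj, Smad6 and Efemp2) without replicate 3. The contractile list median was -0.12 with the software's signals and the series table, -0.13 with median centring, and -0.13 (without replicate 3) to -0.0627 (without replicate 1). The control list median was -0.10 with the software's signals and the series table and -0.0659 with median centring. The matrix list median ranged from -0.15 without replicate 1 to 0.02 without replicate 3 and was -0.15 with the software's signals, and the mural list median ranged from -0.05 to 0.03 and was -0.13. Without replicate 3 the control list median was 0.02. The cause was not tested. The test of each array's ratio against 0 is itself paired by array.

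Pools of 2 hearts on 3 arrays, unexchanged dyes and saturation of the brightest probes limit what these ratios can show.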
